A study of Mus musculus with 138 samples.

Results

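The genes described here are 4 closely related genes on mouse chromosome 12, Gm8300, Gm2022, Gm5662 and Gm2016. They were chosen by name from the gene column of both deposited count tables and lie together in a window of under 1 Mb, in the GRCm38 build. They are 4 of 25900 genes in the tables, and 17 other genes of the tables start in the window.

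The study measured polyadenylated RNA in mouse 2-cell stage embryos after loss of SMARCA5, the ATPase of the ISWI chromatin remodelling complexes. In the deletion experiment, embryos of genotype Smarca5 +/- had a mother that lacked the gene and a wild-type father (called maternal deletion here), and embryos of genotype Smarca5 +/+ served as wild type. The sample titles of both genotypes mention matKO females, so the mothers of the wild-type embryos are not clear from the labels. In the TrimAway experiment, wild-type zygotes lost SMARCA5 protein through an injected antibody and the ubiquitin ligase TRIM21, and libraries were made at least 24 hours after injection; the groups were anti-SMARCA5, IgG and uninjected. The replicate numbers mark pools of embryos, from several matings in the deletion experiment and from separate injections in TrimAway, and the labels call these replicates technical. Each library comes from 1 well, and p-values below measure the spread between wells.

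Genes of this kind encode proteins close to eukaryotic translation initiation factor 1A, which binds the small ribosomal subunit and helps it scan for the start codon. The mouse genome carries many copies of them. Transcripts of such copies appear when the embryo's own genome is switched on at the 2-cell stage, together with the Zscan4 genes and transcripts driven by the MERVL retroelement, and they reappear in the small share of embryonic stem cells that pass through a 2-cell-like state.

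Gm8300 (ENSMUSG00000079034) lies at chr12:87514316-87518253 on the plus strand. Gm5662 (ENSMUSG00000072905) lies at chr12:87874072-87877859, also on the plus strand. Gm2022 (ENSMUSG00000071217), which the tables describe as a predicted pseudogene, lies at chr12:87892834-87896722 on the plus strand. Gm2016 (ENSMUSG00000079029) lies at chr12:88270640-88274500 on the minus strand. GENCODE and RefSeq use the symbols Gm5662 and Gm2016 the other way round for these 2 positions; the symbols of the deposited tables are kept here. GENCODE holds a transcript for 3 of the 4 genes, all but Gm2022, which RefSeq lists as protein-coding. Each of the 3 transcripts has 2 exons, and the whole coding sequence of 432 bases sits in exon 2.

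The coding sequences of the 3 genes differ at 10 of 432 positions. The stretch from coding base 262 to 411 holds 6 of these 10, and it is shown because it contains most of the coding positions that tell the 3 genes apart. Other copies were not compared at these positions. Capitals mark the positions that differ among the 3 genes, and the sequences are read 5′ to 3′ from the GRCm38 genome at chr12:87517158-87517307 (plus strand), chr12:87876846-87876995 (plus strand) and chr12:88271578-88271727 (minus strand).
Gm8300: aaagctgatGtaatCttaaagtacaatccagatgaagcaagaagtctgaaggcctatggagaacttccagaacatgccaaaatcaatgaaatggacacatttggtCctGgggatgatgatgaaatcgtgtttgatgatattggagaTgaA
Gm5662: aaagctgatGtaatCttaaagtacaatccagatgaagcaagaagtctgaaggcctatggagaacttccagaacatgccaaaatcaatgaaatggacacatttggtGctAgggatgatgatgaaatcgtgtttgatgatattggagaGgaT
Gm2016: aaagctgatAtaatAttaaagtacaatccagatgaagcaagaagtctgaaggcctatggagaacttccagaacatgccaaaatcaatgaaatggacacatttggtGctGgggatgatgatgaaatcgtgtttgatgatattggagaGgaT

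Over the coding sequence, Gm5662 and Gm2016 differed at 4 bases, while Gm8300 differed at 8 bases from each of them. Against Eif1ax, the X-linked gene of the factor, coding identity was 85.0% for Gm8300, 85.0% for Gm5662 and 84.7% for Gm2016. Against Eif1a it was 95.1%, 94.7% and 94.2%, in the same order. The untranslated parts separated Gm8300 from the other two: the whole transcripts of Gm5662 and Gm2016 were 99.3% identical over aligned bases, while Gm8300 shared 93.5% with Gm5662 and 93.3% with Gm2016. Of all 50-base stretches of the Gm8300 transcript, 73.4% occurred in no other gene's transcript. The share was 18.7% for Gm5662 and 22.1% for Gm2016, and for 100-base stretches it was 89.2%, 35.3% and 41.6%. How reads that match several copies were counted is not given in the sources used here, so the split of counts between Gm5662 and Gm2016 is uncertain, and values of Gm8300 rest on more sequence of its own. Gm2022 was not analysed in this way.

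Of 135 embryo libraries, 116 held at least 100000 counts and were kept, with totals from 109007 to 12004992 and a median of 1469197. All 6 IgG libraries of replicate 2 fell below that depth. The deletion was visible in its own gene. Smarca5 had a median of 82.2 CPM (counts scaled to a library total of 1000000) in maternal-deletion embryos and 443 CPM in wild type (log2 fold change −2.06 ± 0.31 SE, adjusted p = 2.63e-07, edgeR). However, 1 well labelled maternal deletion, A04 of replicate 2, stood at 349 CPM, and 2 wild-type wells of replicate 2, G05 and H05, stood apart from their group. G05 and H05 were also high for the members, with sums of the 4 genes of 859 and 314 CPM against a pool median of 57.9 CPM. Results of the deletion comparison are given with and without these 3 wells. TrimAway acts on protein, and Smarca5 mRNA stood at medians of 336 CPM after anti-SMARCA5 and 693 after IgG (log2 fold change −0.65, adjusted p = 0.124, edgeR). Trim21, the injected component, had a median of 1404 CPM after anti-SMARCA5 with 1 of 31 libraries at 0, well C02 of replicate 2, and was at 0 in 12 of 20 IgG libraries, among them every library of replicate 1. Oocyte markers were high after maternal deletion: their summed level ranged from 792 to 33596 CPM (median 10542) against 358 to 4822 CPM (median 1505) in wild type. Of these markers, 14 of 14 passed the test as higher (all genes: 30.3%). Cumulus cell markers summed to 0 to 154 CPM after deletion and 0 to 58.1 CPM in wild type, with Inha at 0 in every library of both groups.

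The 4 genes were detected in all 5 embryo groups, and their levels spread more widely between embryos of one pool than between groups. Values are CPM, the count divided by the library total. In wild-type embryos Gm2016 averaged 254 ± 335 CPM, Gm8300 160 ± 189, Gm5662 116 ± 137.5 and Gm2022 43.3 ± 61.8 (mean ± SD, n = 22). In maternal-deletion embryos the means were 77.2 ± 210 for Gm2016, 37.1 ± 98.7 for Gm8300, 31.5 ± 70.7 for Gm5662 and 25.4 ± 56.0 for Gm2022 (SD, n = 28). The SD exceeded the mean for every member in both groups.

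In the TrimAway experiment the uninjected embryos had the lowest means, with Gm2016 at 107 ± 141 CPM, Gm5662 at 50.1 ± 64.2, Gm8300 at 45.3 ± 81.7 and Gm2022 at 20.3 ± 38.6 (SD, n = 15). IgG embryos averaged 221 ± 247 CPM for Gm2016, 88.4 ± 87.6 for Gm5662, 57.7 ± 90.8 for Gm8300 and 39.6 ± 79.4 for Gm2022 (SD, n = 20). Anti-SMARCA5 embryos averaged 301 ± 413 CPM for Gm2016, 97.1 ± 160 for Gm8300, 96.5 ± 133 for Gm5662 and 50.6 ± 86.1 for Gm2022 (SD, n = 31). Here too the means of neighbouring groups lay within 1 SD of each other. In these libraries fewer cells and less RNA per cell cannot be told apart.

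Gm2016 was the most abundant of the 4. It took 49.0% of their pooled counts, against 20.2% for Gm5662, 19.9% for Gm8300 and 10.9% for Gm2022, and it was the highest member in 59 of 72 libraries that held at least 100 counts over the 4. Per kilobase of transcript, the wild-type level of Gm2016 was 138 ± 182 CPM per kb, that of Gm8300 85.2 ± 101 and that of Gm5662 65.7 ± 77.9 (SD, n = 22). After anti-SMARCA5 the same 3 genes stood at 164 ± 224, 51.8 ± 85.4 and 54.6 ± 75.3 CPM per kb (SD, n = 31). Gm2016 led in both groups, and the order of Gm8300 and Gm5662 changed, within their spread.

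Embryos with none of the 4 genes were found in 2 groups. All 4 were detected in 16 of 22 wild-type libraries, 14 of 15 uninjected, 17 of 20 IgG, 15 of 28 maternal-deletion and 19 of 31 anti-SMARCA5 libraries. None of the 4 had a count in 6 maternal-deletion and 2 anti-SMARCA5 libraries. A count of 0 allows up to 3 counts, which is 0.25 to 27.5 CPM over the kept libraries, for counting error only.

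Differences between replicate pools of one group took a larger share of the variance than differences between groups. Pools outnumbered groups, so these shares do not compare the size of single differences. On the log2(CPM + 1) scale, differences between groups took 12% of the variance of Gm8300, 7.01% of Gm2022, 13.9% of Gm5662 and 17.3% of Gm2016. Differences between replicates of one group took 18.6%, 11.4%, 21.0% and 20.1%, in the same order. The rest, 69.4%, 81.6%, 65.2% and 62.6%, lay between libraries of one pool, with an SD of 2.3 to 2.64 log2 units.

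**Figure D1:**
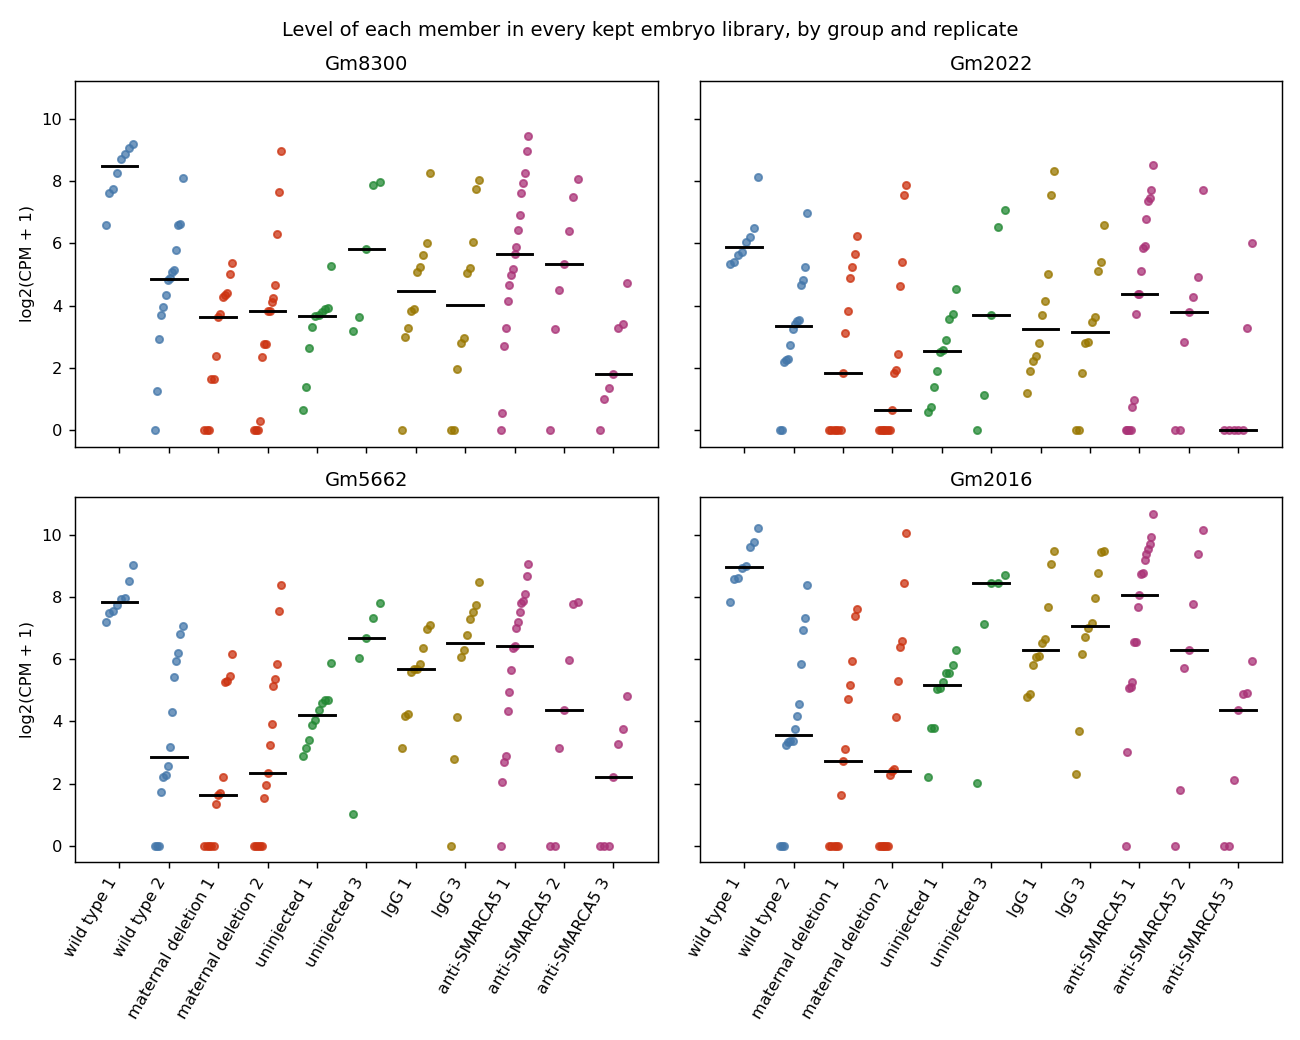
Level of each of the 4 genes in every kept library, as log2(CPM + 1), by group and replicate; each point is 1 library, and the black bar is the median of the pool. Wild-type replicate 1 sits high in all 4 panels, wild-type replicate 2 and both deletion replicates reach down to 0, and the pools of uninjected and anti-SMARCA5 embryos shift in opposite directions between replicates 1 and 3.

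Wild-type embryos of the deletion experiment fell into a high and a low pool. Gm2016 ranged from 227 to 1200 CPM (median 497, n = 8) in replicate 1 and from 0 to 331 (median 10.9, n = 14) in replicate 2. Gm8300 ranged from 96.1 to 589 CPM (median 364) in replicate 1 and from 0 to 270 (median 28.2) in replicate 2. The same order held for Gm5662, with 146 to 518 CPM (median 227) against 0 to 132 (median 6.45). It also held for Gm2022, with 39.7 to 278 (median 58.2) against 0 to 125 (median 9.06). In a comparison chosen after the values were seen, all 4 were lower in replicate 2 than in replicate 1: log2 fold change −3.58 ± 0.79 for Gm2016, −3.18 ± 0.72 for Gm5662, −3.01 ± 0.66 for Gm8300 and −2.31 ± 0.68 for Gm2022 (SE; adjusted p from 0.000899 to 0.00859, edgeR). Of all genes tested in that comparison, 38.5% passed, 21.5% as higher and 17% as lower; scaled by total counts alone, 30.8% were higher and 10.7% lower. At a depth minimum of 500000 counts, which left 13 libraries, only Gm2016 passed (−3.15 ± 0.83, adjusted p = 0.0249, edgeR), with 8.24% of all genes passing, and the others stood at −2.96 for Gm5662, −2.55 for Gm8300 and −1.71 for Gm2022. The summed level of the oocyte markers also differed between these pools, with a median of 2620 CPM in replicate 1 and 835 in replicate 2. Tested singly, 2 of 11 markers passed as lower in replicate 2 and 1 as higher (all genes: 17% and 21.5%). The part of the oocyte markers in the result was not tested. Each of the 2 replicates is its own collection of embryos on its own sequencing lane, and these sources of difference cannot be told apart.

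Maternal-deletion embryos were low in both replicates, with a few high wells. Gm2016 ranged from 0 to 196 CPM (median 5.59, n = 13) in replicate 1 and from 0 to 1069 (median 4.35, n = 15) in replicate 2. Gm8300 ranged from 0 to 40.2 CPM (median 11.3) in replicate 1 and from 0 to 499.6 (median 13.1) in replicate 2. Gm5662 ranged from 0 to 71.2 CPM (median 2.1) and from 0 to 334 (median 4.04), and Gm2022 from 0 to 74.1 (median 2.59) and from 0 to 233 (median 0.578). Every median of both deletion pools lay below that of the low wild-type pool for the same gene, and the ranges overlapped. The sum of the 4 genes reached 2091 CPM in well D04 of replicate 2, while the median of that pool was 24.0 CPM.

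Across both replicates, 2 of the 4 genes passed the test of maternal deletion against wild type, both as lower. The effect was −2.07 ± 0.68 for Gm8300 (a 4.21-fold lower level, adjusted p = 0.00866, edgeR) and −1.81 ± 0.75 for Gm5662 (3.51-fold lower, adjusted p = 0.0357, edgeR), as log2 fold change ± SE with n = 50 libraries. Gm2016 stood at −1.66 ± 0.82 (adjusted p = 0.0771, edgeR) and Gm2022 at −0.67 ± 0.76 (adjusted p = 0.465, edgeR), neither past the threshold. Of all genes tested, 56.6% passed in this comparison (26.4% as lower and 30.3% as higher). With shares of this size, 2 calls as lower among 4 related genes are too few to set the members apart. Without the 3 wells A04, G05 and H05 the values were −2.03 (adjusted p = 0.0123, edgeR) for Gm8300 and −1.85 (adjusted p = 0.0385, edgeR) for Gm5662, so 2 of the 4 passed, with 60.1% of all genes passing and 28.1% as lower. With the replicate as a block neither passed, at −1.77 (adjusted p = 0.0608, edgeR) and −1.28 (adjusted p = 0.194, edgeR).

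The difference rested on replicate 1. Within it all 4 genes were lower after deletion: Gm8300 by a log2 fold change of −4.54 ± 0.57 (adjusted p = 6.20e-07), Gm5662 −3.60 ± 0.74 (adjusted p = 0.000365), Gm2016 −3.57 ± 0.80 (adjusted p = 0.000775) and Gm2022 −1.99 ± 0.78 (adjusted p = 0.0385), by edgeR with n = 21 libraries. In this replicate 43.8% of tested genes passed, 20.2% as lower. Among the kept libraries the ranges of the 2 groups did not overlap for Gm8300, Gm2016 and Gm5662, and they overlapped for Gm2022. How many of all genes had separate ranges was not counted, so this does not set the members apart. Well D08 of deletion replicate 1, left out because its total of 94536 counts was just under the depth minimum, held 836 CPM over the 4 genes, inside the range of 508 to 2342 CPM that this sum had in wild-type replicate 1. Within replicate 2 none of the 4 passed, and the fitted values were above 0: 0.40 ± 0.93 for Gm8300, 0.62 ± 1.04 for Gm5662, 1.11 ± 1.12 for Gm2016 and 0.88 ± 1.11 for Gm2022 (adjusted p from 0.435 to 0.744, edgeR, n = 29 libraries), against 39.9% of all genes passing. The medians after deletion were lower than in wild type for all 4 in that replicate, as given above. For 3 of the 4 the sign of the fitted value turned without 1 well. Without well D04, chosen after its values were seen, the effects were −0.71 ± 0.91 for Gm8300, −0.28 ± 1.05 for Gm5662, −0.31 ± 1.07 for Gm2016 and 0.27 ± 1.12 for Gm2022, with none passing (adjusted p from 0.545 to 0.859, edgeR, n = 28 libraries) and 38.7% of all genes passing.

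The change of the deletion effect from replicate 1 to replicate 2 passed the test narrowly for Gm8300, at 4.83 ± 1.27 log2 units (adjusted p = 0.0498, edgeR). The same difference was 4.53 ± 1.59 for Gm2016 (adjusted p = 0.137), 4.08 ± 1.44 for Gm5662 (adjusted p = 0.138) and 2.74 ± 1.51 for Gm2022 (adjusted p = 0.367), by edgeR. Of all tested genes 0.763% passed this test, 0.634% as higher. Without wells A04, G05 and H05 it passed for 3 of the 4, Gm8300, Gm2016 at 5.51 (adjusted p = 0.0208, edgeR) and Gm5662 at 4.62 (adjusted p = 0.0345, edgeR), with 12.6% of all genes passing and 10.6% as higher. It passed for none of the 4 without well D04 of deletion replicate 2, where Gm8300 stood at 3.88 ± 1.17 (adjusted p = 0.0726, edgeR) and 0.982% of all genes passed, at a depth minimum of 500000 counts (Gm8300 at 3.92, adjusted p = 0.649, edgeR) or with no depth minimum (4.86, adjusted p = 0.0699, edgeR). Wells G05 and H05 were high for the members, so leaving them out lowers wild-type replicate 2 and moves this difference up. Well A04 also lay above its pool mean for all 4 genes, and leaving it out acts the other way. The calls added without these 3 wells are therefore no independent result.

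Single wells also bore on the calls of the deletion comparison. When each of the 50 libraries was left out in turn, Gm8300 passed 50 times, Gm5662 47 times, Gm2016 2 times and Gm2022 0 times. Gm5662 no longer passed without well B07, G07 or H07 of wild-type replicate 1, with an adjusted p of at most 0.0785. Gm2016 passed without well A09 of deletion replicate 1 or well D04 of deletion replicate 2, with an effect down to −2.57 (adjusted p = 0.00618, edgeR).

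**Figure D2:**
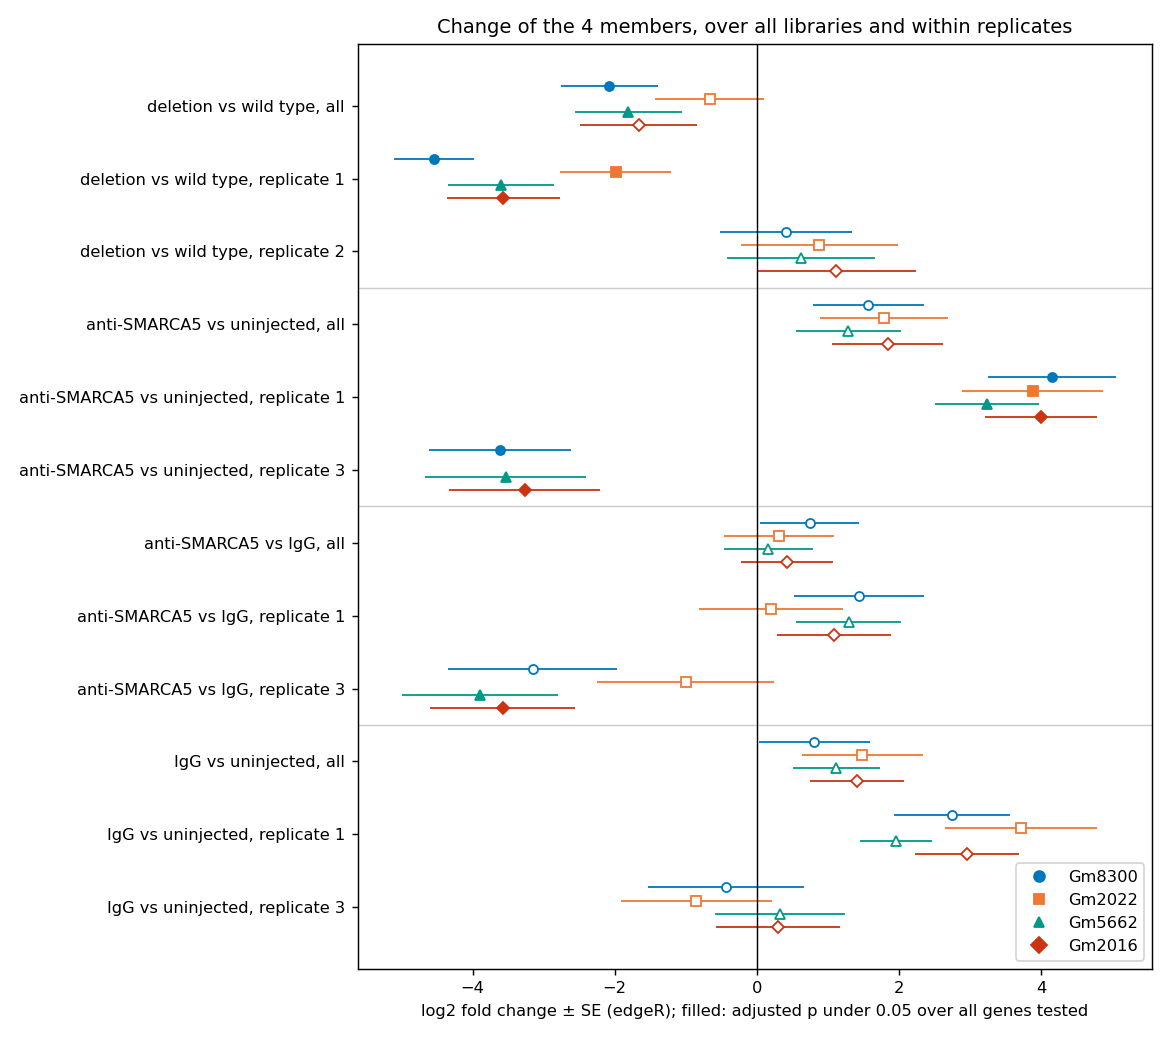
Log2 fold change with its SE from edgeR for each of the 4 genes, over all libraries and within single replicates, for the deletion and TrimAway comparisons; filled symbols passed at an adjusted p under 0.05 over all genes tested. The deletion effect is −4.54 to −1.99 in replicate 1 and 0.40 to 1.11 in replicate 2, and anti-SMARCA5 against uninjected lies above 3 in replicate 1 and below −3 in replicate 3.

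Uninjected embryos of the TrimAway experiment also fell into a low and a high pool. In replicate 1, Gm2016 ranged from 3.59 to 77.6 CPM (median 35.2, n = 10). In replicate 3 the 5 wells held 3.10, 137.6, 344, 349 and 415 CPM. Gm8300 ranged from 0.549 to 37.2 CPM (median 11.8) in replicate 1 and stood at 8.16, 11.4, 55.0, 235 and 252 CPM in replicate 3. The lowest well of replicate 3 lay just below the range of replicate 1 for Gm2016 and within it for Gm8300, and the highest wells lay above it for both.

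Gm5662 ranged from 6.38 to 57.7 CPM (median 17.5) in uninjected replicate 1, and its 5 wells of replicate 3 held 1.03, 64.1, 101, 159 and 222 CPM. Gm2022 ranged from 0.502 to 22.3 CPM (median 4.81) in replicate 1 and stood at 0, 1.17, 12.1, 91.5 and 133 CPM in replicate 3. In a comparison chosen after the values were seen, 3 of the 4 were higher in replicate 3: Gm8300 by 3.43 ± 0.72 log2 units (adjusted p = 0.0384), Gm2016 by 2.99 ± 0.64 (adjusted p = 0.0451) and Gm5662 by 2.61 ± 0.59 (adjusted p = 0.0465), by edgeR with n = 15 libraries. Gm2022 stood at 2.90 ± 0.86 (adjusted p = 0.108, edgeR). Only 0.658% of tested genes passed there, 0.601% as higher and 0.0572% as lower; scaled by total counts alone the shares were 0.2% and 0.0477%, and 1 member passed.

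Anti-SMARCA5 embryos were high in replicate 1 and low in replicate 3. Gm2016 ranged from 0 to 1640 CPM (median 268, n = 17) in replicate 1, from 0 to 1132 (median 77.6, n = 7) in replicate 2 and from 0 to 59.9 (median 19.8, n = 7) in replicate 3. Gm8300 ranged up to 695 CPM (median 49.2), 265 (median 39.7) and 25.2 (median 2.49) in the same order. Gm5662 had medians of 84.7, 19.7 and 3.66 CPM and Gm2022 medians of 19.9, 12.9 and 0, with 5 of 7 libraries of replicate 3 at 0 for Gm2022. The sum of the 4 genes reached 2474 CPM in replicate 1 and 176 CPM in replicate 3.

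Against uninjected embryos, none of the 4 genes passed when all libraries were used. The effects were 1.84 ± 0.78 for Gm2016 (adjusted p = 0.0688), 1.57 ± 0.78 for Gm8300 (adjusted p = 0.119), 1.79 ± 0.90 for Gm2022 (adjusted p = 0.121) and 1.29 ± 0.74 for Gm5662 (adjusted p = 0.178), by edgeR with n = 46 libraries. At an unadjusted p under 0.05, Gm2016 passed, and DESeq2 called 1 member. Of all genes tested 27.9% passed, 17.5% as higher and 10.4% as lower; scaled by total counts alone 3.8% were higher and 17.4% lower. Leaving out 1 library at a time, 1 member passed without well D04 of uninjected replicate 3 and 2 passed without well H04 of the same pool, and none did in the other cases.

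Within replicates the comparison with uninjected embryos gave opposite results, in an alternative chosen after the values were seen. In replicate 1 all 4 genes were higher after anti-SMARCA5: Gm8300 by 4.15 ± 0.90 (adjusted p = 0.00379), Gm2016 by 4.0 ± 0.79 (adjusted p = 0.00191), Gm2022 by 3.88 ± 0.99 (adjusted p = 0.0113) and Gm5662 by 3.23 ± 0.73 (adjusted p = 0.00520), in log2 units by edgeR with n = 27 libraries, where 15.6% of all genes passed and 11.1% as higher. In replicate 3 the 3 genes that could be tested were lower: Gm8300 by −3.61 ± 1.0 (adjusted p = 0.0174), Gm5662 by −3.54 ± 1.13 (adjusted p = 0.0317) and Gm2016 by −3.27 ± 1.06 (adjusted p = 0.0334), by edgeR with n = 12 libraries, where 26.7% of all genes passed and 11.5% as lower. Gm2022 had too few counts there to be tested.

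The change of this effect from replicate 1 to replicate 3, also tested only after the values were seen, passed for all 4 genes. It was −7.73 ± 1.5 log2 units for Gm8300 (adjusted p = 0.00137), −7.22 ± 1.38 for Gm2016 (adjusted p = 0.00127), −6.74 ± 1.35 for Gm5662 (adjusted p = 0.00178) and −5.72 ± 1.77 for Gm2022 (adjusted p = 0.0285), by edgeR with n = 39 libraries. Of all genes tested, 12.6% passed, 8.23% as lower. Both the uninjected and the anti-SMARCA5 pools moved, as the ranges above show, and each replicate is 1 pool per group, so a change of the treatment's effect and a difference between pools cannot be told apart.

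IgG embryos had means between those of uninjected and anti-SMARCA5 embryos for each of the 4 genes. The medians kept this order for Gm8300 and Gm2022 only. For Gm2016 they were 45.9 CPM in uninjected, 101 in IgG and 77.6 in anti-SMARCA5 embryos. For Gm5662 they were 23.2, 61.4 and 27.3 CPM, in the same order. Gm2016 ranged from 26.8 to 707 CPM (median 78.9, n = 10) in replicate 1 and from 3.96 to 707 (median 134, n = 10) in replicate 3. Gm8300 ranged from 0 to 305 CPM (median 23.2) and from 0 to 262 (median 19.6). Gm5662 ranged from 7.88 to 136 CPM (median 50.5) and from 0 to 354 (median 92.9), and Gm2022 from 1.26 to 320 (median 9.04) and from 0 to 95.7 (median 8.05). The ranges of the 2 pools overlapped for each gene, and the highest well of Gm5662 was higher in replicate 3 and that of Gm2022 higher in replicate 1.

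Anti-SMARCA5 against IgG gave no call among the 4 genes over all libraries. The effects were 0.74 ± 0.70 for Gm8300, 0.42 ± 0.65 for Gm2016, 0.31 ± 0.77 for Gm2022 and 0.16 ± 0.63 for Gm5662 (adjusted p from 0.483 to 0.883, edgeR, n = 51 libraries; none at an unadjusted p under 0.05 and none by DESeq2), while 3.03% of all genes passed, 1.73% as higher and 1.3% as lower, or 0.163% and 0.45% when scaled by total counts alone. With the replicate as a block all 4 effects turned negative, at −0.14 for Gm8300, −0.53 for Gm2016, −0.28 for Gm2022 and −0.43 for Gm5662, and none passed. A fit within replicate 1 alone was added after the values were seen. Its effects were 1.43 ± 0.92 for Gm8300, 1.29 ± 0.74 for Gm5662, 1.08 ± 0.80 for Gm2016 and 0.19 ± 1.01 for Gm2022, with none passing (adjusted p from 0.288 to 0.925, edgeR) and 0.857% of all genes passing. The IgG embryos of that replicate held no Trim21 count, unlike the anti-SMARCA5 embryos they were compared with; its part in the result was not tested.

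In an alternative chosen after the values were seen, the near-identical pair Gm5662 and Gm2016 was lower after anti-SMARCA5 than after IgG within replicate 3. Gm5662 was lower by −3.90 ± 1.09 log2 units (14.9-fold, adjusted p = 0.0246, edgeR) and Gm2016 by −3.58 ± 1.02 (11.9-fold, adjusted p = 0.0255, edgeR), with n = 17 libraries. Gm8300 stood at −3.15 ± 1.19 (adjusted p = 0.0663, edgeR) and Gm2022 at −1.0 ± 1.24 (adjusted p = 0.573, edgeR). Of all genes 16.5% passed in this replicate, 9.54% as lower. The difference between the replicates themselves did not pass for any of the 4 with edgeR, at −5.16 ± 1.34 for Gm5662 (adjusted p = 0.0540), −4.64 ± 1.35 for Gm2016 (adjusted p = 0.0905), −4.60 ± 1.56 for Gm8300 (adjusted p = 0.154) and −1.23 ± 1.65 for Gm2022 (adjusted p = 0.762), where 0.366% of all genes passed. DESeq2 called this difference for Gm5662 (adjusted p = 0.00828) and Gm2016 (adjusted p = 0.0198).

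IgG against uninjected gave no call for the 4 genes or any other: 0 of 9915 genes passed with edgeR, 0% of those tested, with 1440 at an unadjusted p under 0.05, and DESeq2 called 267. The effects were 1.48 ± 0.85 for Gm2022, 1.41 ± 0.66 for Gm2016, 1.12 ± 0.61 for Gm5662 and 0.80 ± 0.78 for Gm8300 (adjusted p from 0.318 to 0.653, edgeR, n = 35 libraries). The TrimAway comparisons share their control and treated libraries and are set side by side only.

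The deletion effect and the anti-SMARCA5 effect against IgG differed for Gm8300, by −2.86 ± 1.03 log2 units (adjusted p = 0.0399, edgeR, 101 libraries). The difference was −2.15 ± 1.10 for Gm2016 (adjusted p = 0.158), −2.04 ± 1.04 for Gm5662 (adjusted p = 0.153) and −1.03 ± 1.14 for Gm2022 (adjusted p = 0.554), by edgeR. In this test 19.2% of all genes passed, 8.73% as lower, and with the replicate as a block Gm8300 no longer passed, at −1.67 (adjusted p = 0.493, edgeR).

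Within a pool, the 4 genes rose and fell together from embryo to embryo. Each library's log2(CPM + 1) was taken as a deviation from the mean of its own group and replicate, so that differences between the 11 pools do not enter. Over 116 libraries Pearson's r was 0.899 for Gm5662 with Gm2016 (Spearman's rho 0.876), 0.777 for Gm8300 with Gm2022 (rho 0.780), 0.768 for Gm2022 with Gm2016 (rho 0.763) and 0.748 for Gm2022 with Gm5662 (rho 0.718). The lowest values were those of Gm8300 with Gm2016, 0.631 (rho 0.637), and with Gm5662, 0.60 (rho 0.586). All 6 pairs had a permutation p of 1e-05 for both measures, the smallest that 100000 resamples within pools can give, and the Benjamini-Hochberg adjusted value over the 6 pairs was also 1e-05. Without the 2 libraries farthest from the median of the first gene, r was 0.599 to 0.897.

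The pair with the highest r was also the pair most alike in sequence. Gm5662 and Gm2016 share 77.1% and 74.6% of their 50-base stretches with another of the 3 genes, against 15.0% for Gm8300, and how shared reads were counted is not given in the sources used here; the part of such reads in the correlations was not tested. The mean of the 4 deviations had an r of 0.0944 with the log2 library total. Within single pools r varied: for Gm5662 with Gm2016 it ran from 0.586 to 0.960 over 10 pools, while for Gm8300 with Gm5662 it ran from −0.213, in uninjected replicate 1, to 0.751. The uninjected pool of replicate 1, in which the summed level of the 4 genes spanned only 36.6 to 145 CPM, gave the lowest r for all pairs except Gm2022 with Gm5662.

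**Figure D3:**
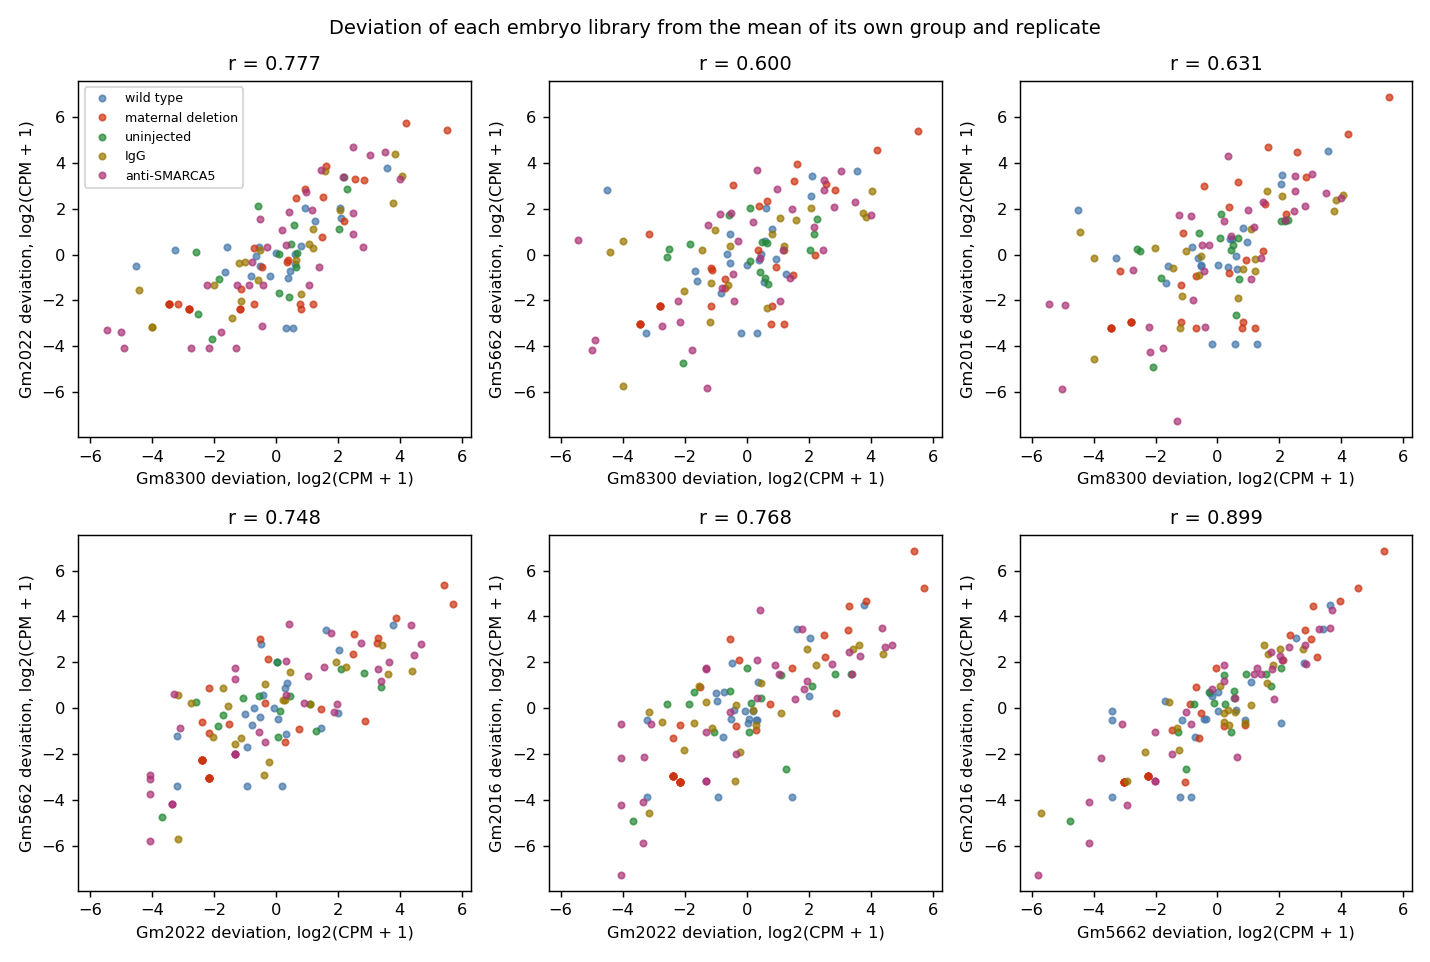
Deviation of each of 116 libraries from the mean of its own group and replicate, in log2(CPM + 1), for the 6 pairs of genes; each point is 1 library, coloured by group. Points follow the diagonal in all 6 panels, most closely for Gm5662 with Gm2016 (r = 0.899) and least for Gm8300 with Gm5662 (r = 0.60).

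The genes most like the cluster were further copies on chromosome 12 and a Zscan4 gene. Likeness was Pearson's r between a gene's deviations and the mean deviation of the 4 members over the 116 libraries, ranked over 8912 genes with a mean of at least 10 CPM, whose median r was 0.0797; 135 genes lay above 0.5. The first 5 were CT485612.1 (r = 0.821), BB287469 (0.820), Gm4027 (0.806), Gm2075 (0.787) and Zscan4d (0.774). The coding sequence of each of the first 4 was 97.0% to 98.4% identical to those of the members, so reads may be shared with them too. Zscan4d, on chromosome 7 at chr7:11161374-11166182, encodes a zinc finger protein of the 2-cell stage, and 0.0% of its 50-base stretches occur in a member's transcript. Of the 10 genes of the window that could be ranked, 5 were among the first 30.

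Zscan4d shared the members' pattern across pools in part. Its pool medians were 110 CPM in wild-type replicate 1 and 36.7 in replicate 2, and 15.3 and 3.83 CPM after maternal deletion. In TrimAway they were 17.7 and 72.4 CPM in uninjected replicates 1 and 3, 53.8 and 46.3 after IgG, and 215, 30.7 and 15.4 in anti-SMARCA5 replicates 1, 2 and 3. The change of its anti-SMARCA5 effect against uninjected embryos from replicate 1 to replicate 3 was −5.17 ± 1.19 (adjusted p = 0.00495, edgeR), of the same sign as for all 4 members. Its deletion effect was 0.27 ± 0.75 (adjusted p = 0.766, edgeR), though both deletion medians lay below both wild-type medians.

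**Figure D4:**
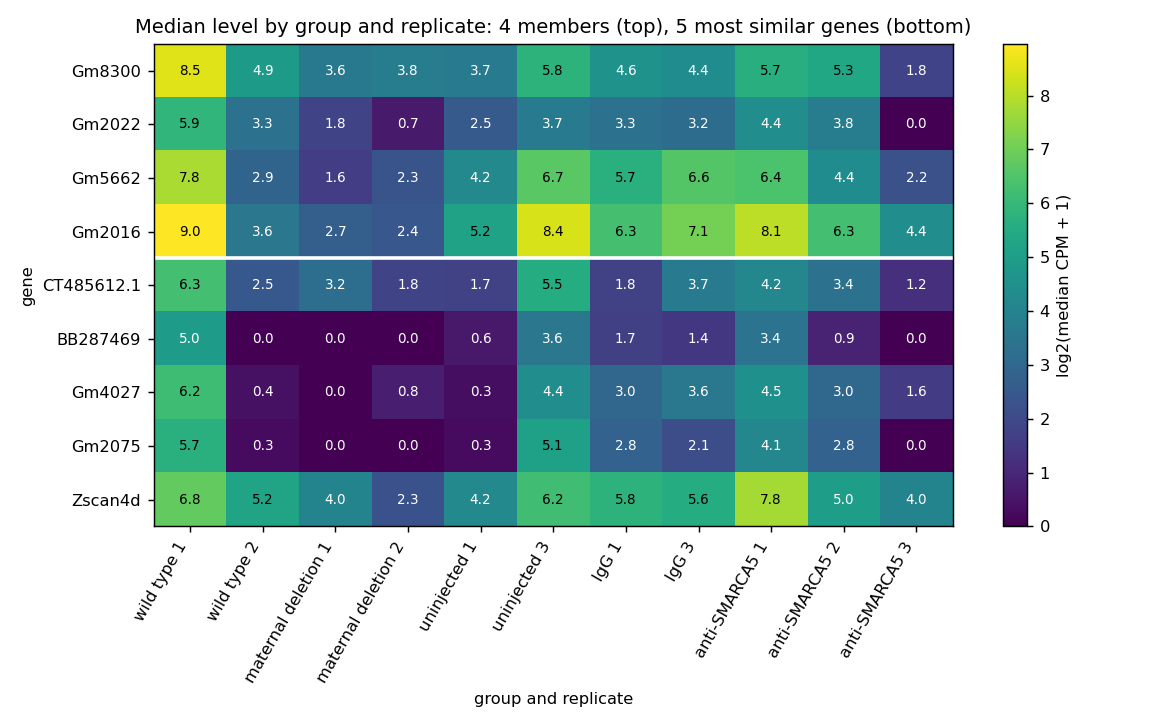
Median level by group and replicate, as log2(median CPM + 1), for the 4 genes (top) and the 5 genes most like them (bottom). All 9 genes have a higher median in wild-type replicate 1 than in replicate 2, and a higher one in anti-SMARCA5 replicate 1 than in replicate 3.

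Other genes of the window did not all follow the 4. After maternal deletion, AC211878.1 (−2.69 ± 0.79, adjusted p = 0.00357, edgeR) and CT485612.2 (−1.79 ± 0.70, adjusted p = 0.0257, edgeR) were lower, while Gm2042 (1.76 ± 0.48, adjusted p = 0.00182, edgeR) and CT954323.1, described in the tables as an Oog1 protein (1.11 ± 0.44, adjusted p = 0.0288, edgeR), were higher, among 5 tested, against 26.4% of all genes lower and 30.3% higher. The fifth, Oog1, encodes oogenesin 1, known from oocytes and early embryos, and did not pass (0.93 ± 0.48, adjusted p = 0.0923, edgeR). Gm2042 had a median of 1206 CPM after deletion and 206 in wild type, while the members were lower after deletion over all libraries. In replicate 1 its medians were 2195 CPM after deletion and 1271 in wild type. In replicate 2 they were 795 and 109 CPM. The oocyte markers were higher after deletion, as given above, like Gm2042 and CT954323.1 and unlike AC211878.1 and CT485612.2. The part of the oocyte markers was not tested.

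The window also held genes that moved with the members between some pools but not between others. Between the wild-type pools 9 of 10 tested neighbours were lower in replicate 2, Oog1 (−3.36 ± 0.50) and Gm2042 (−3.31 ± 0.37) among them, and CT485612.2 was the exception (1.71 ± 0.75, adjusted p = 0.0712, edgeR), against 17% of all genes lower. In the anti-SMARCA5 effect against uninjected, Gm2075 (−9.47 ± 1.67), Gm4027 (−7.72 ± 1.63) and AC211878.1 (−7.68 ± 1.63) were lower in replicate 3 than in replicate 1, and Gm2042 was higher (1.89 ± 0.62, adjusted p = 0.0374, edgeR), among 7 tested, against 8.23% of all genes lower and 4.41% higher. Over all replicates of that comparison, Gm4027 (3.00 ± 0.93), Gm2042 (1.73 ± 0.37), Oog1 (1.12 ± 0.34) and CT954323.1 (1.11 ± 0.29) passed as higher, among 11 tested, against 17.5% of all genes.

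Among 40 listed 2-cell genes, of which 29 were in the tables, 10 of 19 tested were lower and 1 higher after maternal deletion (all genes: 26.4% lower and 30.3% higher), with a median log2 fold change of −1.81 against 0.18 over all genes. Obox3, a homeobox gene of genome activation, changed by −3.87 ± 0.75, and Dppa4 and Dppa2, a pair of chromatin proteins that act upstream of the 2-cell program, by −2.71 ± 0.65 and −2.51 ± 0.44. Against uninjected embryos, 3 of 24 were higher after anti-SMARCA5 and none lower (all genes: 17.5% and 10.4%), with Zscan4f at 2.16 ± 0.72 (adjusted p = 0.0234, edgeR), and the list's median was 0.68. For IgG against uninjected the median was 1.09, with 22 of 23 above 0 and 0 passing (all genes: 0%). For anti-SMARCA5 against IgG it was −0.42, with 0 of 24 higher and 1 lower (all genes: 1.73% and 1.3%). The change of the anti-SMARCA5 effect against uninjected embryos from replicate 1 to replicate 3 passed as lower for 18 of 23 and as higher for 1 (all genes: 8.23% and 4.41%), with a median of −3.62 against −0.37 over all genes. Between the wild-type pools, 10 of 20 were lower in replicate 2 and 3 higher (all genes: 17% and 21.5%). BB287469 belongs both to this list and to the window.

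The ordinary translation initiation factors had mostly negative effects after maternal deletion, as the members had over all libraries. Between the wild-type pools, and for anti-SMARCA5 against uninjected, their direction was mostly opposite to that of the members. Of 22 tested, 17 were lower and 2 higher after maternal deletion (all genes: 26.4% and 30.3%), with a median of −1.86; Eif3b, Eif3c and Eif3g, subunits of the scaffold complex of initiation, changed by −3.80 ± 0.65, −2.96 ± 0.50 and −2.89 ± 0.69. Eif1ax itself stood at 0.01 ± 0.39 (adjusted p = 0.985, edgeR), and Eif1a was lower by −1.39 ± 0.48 (adjusted p = 0.0116, edgeR). Between the wild-type pools, where all 4 members were lower in replicate 2, 11 of 22 initiation factors were higher and 0 lower (all genes: 21.5% and 17%). Against uninjected embryos 8 of 23 were lower after anti-SMARCA5 and 0 higher (all genes: 10.4% and 17.5%), and against IgG 1 of 23 was lower (all genes: 1.3%).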

How the data were processed

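Counts per gene were deposited as whole numbers by the authors in a table for the deletion experiment and a table for TrimAway; per the file headers the reads were aligned with HISAT2 to GRCm38, and the submitters' processing notes list Trim Galore 0.6.5, cutadapt 2.3 and HISAT2 2.1.0. The annotation release, the strand setting and the treatment of multi-mapping reads are not given in the sources used here. Odd counts outnumber even ones (134662 table cells at 1 and 30228 at 2), so counts may not be independent fragments, and intervals or floors cover counting error only. The 25965 lines include 57 identifiers on more than 1 line, which were summed to 25900 genes.

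Libraries with at least 100000 counts were used (116 of 135). edgeR 4.0.16 (R 4.3.3) quasi-likelihood tests used TMM scaling and the tool's filter on low counts, with p-values adjusted over all genes tested (threshold 0.05); fold changes are log2 with an SE derived from the F statistic, and the replicate was not in the model unless stated. DESeq2 1.42.0, other scaling, filters and depth minimums, a replicate block and left-out replicates or libraries were alternatives. Same-numbered samples of 2 groups deviated together with r of 0.537 (deletion), 0.590 (anti-SMARCA5 and IgG), 0.0902 (anti-SMARCA5 and uninjected) and 0.432 (IgG and uninjected); the labels say that a number marks a pool of embryos or injections. Correlations used log2(CPM + 1) in Python 3.11.15 with scipy 1.17.1. Sequences came from the GRCm38 genome with GENCODE transcripts and RefSeq names. The fitting script was tested on simulated data. Genes named beyond the members are the 5 most like them and, per list, the 3 with the largest change among those that passed. The members, lists and added comparisons were chosen with earlier results of these data known.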

Additional observations from a re-analysis of the deposited data

Results flagged for a closer look

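In 8 of 28 combinations of gene and pool with 4 to 10 libraries, 1 library lay far from the others of its pool. The cutoff allows about 1 in 20 by chance for normally distributed values. These CPM values were skewed towards high wells and the genes moved together, so that rate is no measure for the 8. All 8 were the highest of their pool. Gm2022 stood at 278 CPM in well C07 of wild-type replicate 1, at 95.7 CPM in well A03 of IgG replicate 3, at 209 CPM in well G02 of anti-SMARCA5 replicate 2 and at 63.1 CPM in well E05 of anti-SMARCA5 replicate 3. Gm8300 stood at 25.2 CPM in that same well E05, at 305 CPM in well H09 of IgG replicate 1 and at 37.2 CPM in well C09 of uninjected replicate 1. Gm5662 stood at 57.7 CPM in well F09 of uninjected replicate 1.

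Effects that differed between pools or experiments by a test of the difference were those of Gm8300 for maternal deletion (4.83 log2 units from replicate 1 to replicate 2, which did not pass without well D04 of deletion replicate 2) and for deletion against anti-SMARCA5 over IgG (−2.86). For anti-SMARCA5 over uninjected, the effect changed from replicate 1 to replicate 3 by −7.73 for Gm8300, −5.72 for Gm2022, −6.74 for Gm5662 and −7.22 for Gm2016. That last test was chosen after the values were seen.

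Counts of the 4 genes also appeared in 9 of the 19 embryo libraries that were left out for low depth, above the 3 counts that a count of 0 allows. The 3 wells without an embryo held 453 to 1875 counts in all, too few to show a background. The sum of the 4 genes was 79 counts (836 CPM) in well D08 of deletion replicate 1, 6 and 5 in wells D01 and H01 of wild-type replicate 2, 6 in well D08 of uninjected replicate 1, and 8, 24, 12, 6 and 30 in wells F01, A01, B01, C01 and E01 of IgG replicate 2.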

How the results depend on the processing

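Of the alternative values of the members' log2 fold changes, 240 kept their direction and side of the threshold, 15 passed it and 20 lost it, and 25 changed sign; all 25 left out or singled out a replicate, or used the replicate block. The 24 alternative correlations and 40 alternative levels stayed within their limits. For deletion, 2 members passed; 1 did with no filter on low counts, 0 at a depth minimum of 500000 counts, 0 with the replicate block, 0 in replicate 2 only without well D04, and 0 to 4 when replicates or libraries were left out. For anti-SMARCA5 against uninjected, where 0 passed, 1 did with DESeq2, 4 in replicate 1 only, 3 in replicate 3 only and 0 to 4 with replicates or libraries left out. Against IgG, 2 passed in replicate 3 only. The change of the deletion effect between replicates was called for 0 members at the 500000 minimum, 0 with no depth minimum, 0 without well D04 and 3 without wells A04, G05 and H05; DESeq2 called 2 for anti-SMARCA5 against IgG. The difference between deletion and TrimAway lost its call at the 500000 minimum (0) and with the block (0). At that minimum 1 member passed between wild-type pools and 1 between uninjected pools, where total counts alone gave 1. The cause was not tested.

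Leaving out 1 replicate moved the deletion effect between −4.54 and 0.404 for Gm8300, −1.99 and 0.877 for Gm2022, −3.60 and 0.616 for Gm5662, and −3.57 and 1.11 for Gm2016; in replicate 2 only without well D04, Gm2022 stood at 0.275. The range for anti-SMARCA5 against IgG was −0.494 to 1.24, 0.0205 to 0.412, −1.36 to 1.11 and −0.593 to 0.987, in the same order of genes. For anti-SMARCA5 against uninjected it was −0.929 to 3.93, −0.423 to 3.67, −1.0 to 3.02 and −0.264 to 3.86, and for IgG against uninjected it reached −0.439 to 2.74 for Gm8300 and −0.851 to 3.71 for Gm2022. With the replicate block, anti-SMARCA5 against IgG stood at −0.142, −0.281, −0.428 and −0.527, and in replicate 3 only at −3.15, −1.0, −3.90 and −3.58. In replicate 3 only, anti-SMARCA5 against uninjected stood at −3.61 for Gm8300, −3.54 for Gm5662 and −3.27 for Gm2016. The block changed no call other than those of the deletion comparison and of its difference from TrimAway.

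The number of all genes that passed ran over the alternatives from 2801 to 10416 for deletion (4825 as reported), from 0 to 3010 for anti-SMARCA5 against IgG (317), from 1 to 6184 against uninjected (2999) and from 0 to 881 for IgG against uninjected (0). It ran from 1 to 1060 for the deletion effect between replicates (65), from 36 to 273 (37) and from 1127 to 1987 (1299) for the TrimAway effects against IgG and uninjected between replicates, and from 1404 to 4285 for deletion against TrimAway (2315). Between wild-type pools it ran from 812 to 3448 (2693) and between uninjected pools from 26 to 815 (69). Scaling by total counts alone moved the median log2 fold change of all genes most for anti-SMARCA5 against uninjected (from 0.13 to −0.29) and between wild-type pools (from 0.08 to 0.49), and it turned no member's direction. In the shallowest kept library a count of 0 allows up to 27.5 CPM, above the median of most members in the low pools, so absence from a library was not detectable there.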
